A study of Mus musculus with 30 samples.

Results

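RNA of 2 untreated mouse tumor cell lines was compared: 6694c2, a line from pancreatic ductal adenocarcinoma (PDAC), and B16F10, a melanoma line. The comparison took the 3 samples titled C2-vehicle against the 3 titled B16-vehicle, 6 of the 24 bulk samples of the study, and every gene with at least 10 reads over these 6 samples. That left 17006 of 49315 genes, chosen by read number and not by any difference between the lines. The study treated PDAC tumors in mice with checkpoint antibodies and a STING agonist, and cultured both lines with IFNγ, IFNβ or the agonist to see how tumor cells themselves respond. In that experiment the vehicle groups are the controls, and here they are set against each other. 6694c2 came from female mice with engineered alleles, p53+/floxed, Pdx-cre and YFP-floxed among them, in which Cre under the Pdx promoter acts in the pancreas lineage. Both lines carry the genotype label C57BL/6, and no engineered allele is named for B16F10. No agent is given for the vehicle samples, and the composition of the vehicle and the culture medium of B16F10 are not given in the sources used here. Each group is 1 cell line, so tumor type, founder animal, culture history and genotype cannot be told apart as sources of a difference between the groups. Nothing says that the 3 samples of a line were separate cultures, so the p-values measure the spread between these samples, which may be technical.

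Melanocytes make melanin in melanosomes. The transcription factors Mitf, Sox10 and Pax3 switch on the enzymes Tyr, Tyrp1 and Dct, the fibril protein Pmel and the transporters that load and move the organelle. Pancreatic duct cells are epithelial cells that carry keratins of simple epithelia, E-cadherin and a set of gut transcription factors such as Pdx1, Gata6 and Hnf4a, and carcinomas can lose part of this programme as they take on mesenchymal genes. Interferon-response genes are switched on through receptors, Janus kinases and STAT and IRF factors such as Stat2 and Irf9, but many are also transcribed at a low tonic level without added interferon. Cytosolic DNA is sensed by cGAS, which makes a cyclic dinucleotide that binds STING, and cytosolic RNA by RIG-I and MDA5, which signal through MAVS. Both routes use the kinases Tbk1 and Ikbke and the factor Irf3 to start interferon transcription.

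Promoter stretches are shown for genes of the pigment and interferon groups, since these groups held the lowest and the next lowest median fold change among the lists of at least 15 tested genes. The genes were picked among those with a motif match before the transcription start. The stretches are from RefSeq on GRCm38.p6, are printed 5′ to 3′ on the strand of the gene and end at or before the transcription start. Capitals in the pigment genes mark the letters TCATGTG or their reverse complement CACATGA, the E-box of the M-box to which Mitf binds.
Tyr (chr7:87493513-87493574, minus strand): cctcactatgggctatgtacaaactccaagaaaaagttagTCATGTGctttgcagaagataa
Tyrp1 (chr4:80834126-80834212, plus strand): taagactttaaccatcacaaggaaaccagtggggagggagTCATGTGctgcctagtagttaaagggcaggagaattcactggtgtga
Dct (chr14:118052351-118052496, minus strand): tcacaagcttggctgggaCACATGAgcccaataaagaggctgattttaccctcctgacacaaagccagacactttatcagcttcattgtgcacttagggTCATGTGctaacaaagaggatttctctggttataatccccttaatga
Capitals in the interferon-response genes mark GAAA, any 2 bases and GAAA again, or the reverse complement TTTC, any 2 bases and TTTC, the core of the interferon-stimulated response element, and matches that overlap run together.
Ifit1 (chr19:34640745-34640853, plus strand): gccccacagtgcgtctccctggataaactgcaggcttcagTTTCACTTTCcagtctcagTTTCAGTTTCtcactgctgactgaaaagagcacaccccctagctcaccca
Isg15 (chr4:156200835-156200936, minus strand): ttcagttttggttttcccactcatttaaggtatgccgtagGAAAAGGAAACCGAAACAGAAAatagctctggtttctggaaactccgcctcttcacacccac
Rsad2 (chr12:26456523-26456612, minus strand): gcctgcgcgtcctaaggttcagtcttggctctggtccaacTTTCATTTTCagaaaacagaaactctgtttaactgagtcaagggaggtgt
Positions of genes below are those of the deposited files, on mm10. On both strands of windows from 250 bases before to 50 after the start, TCATGTG was found for 7 of the 21 melanocyte genes with a RefSeq entry (33.3%) and for 4.31% of all 27025 genes with one. The response element core was found for 24 of 47 interferon-response genes (51.1%) and for 3.99% of all genes. Of the 24 interferon-response genes with a match 19 were lower, 2 higher and 3 not called in 6694c2, and of the other tested genes with an entry 14, 5 and 3. All 7 melanocyte genes with a match were lower, but so were all 11 tested genes with an entry and no match, so the calls did not separate the 2 kinds. Of the lead genes, those picked to stand for each list, Mitf, Kit, Oasl2, Irf7, Irf9 and Lgals3bp had an entry but no match, and in Ifitm3 the match lay after the start. Rsad2, an antiviral enzyme outside the lead genes, had 3.73, 3.07 and 5.12 CPM in 6694c2 and 95.1, 115 and 116 CPM in B16F10 samples (log2 fold change -4.78, SE 0.13, adjusted p = 5.08e-16, edgeR). A match is a description of the letters in these windows, not of binding.

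Between 17450954 and 19224703 reads were counted on genes in the 6694c2 samples and between 19688783 and 24019834 in the B16F10 samples. Levels are given as CPM, read counts scaled to the TMM-normalized library size, and as RPKM, which also divides by gene length, where genes are compared with each other. Fold changes are 6694c2 over B16F10 on the log2 scale from edgeR's quasi-likelihood test, and a gene was called at a Benjamini-Hochberg adjusted p under 0.05. The lines differed at most genes. Of the 17006 genes tested, 11957 were called (70.3%), 5822 higher (34.2%) and 6135 lower (36.1%) in 6694c2. Calls over 2-fold numbered 3102 higher (18.2%) and 3548 lower (20.9%), and over 10-fold 1509 and 1788. The median log2 fold change of all genes tested was -0.03. With this background a single call is common, and the lists below are read by how far their counts and medians stand from these shares. At least 1 CPM in all 3 samples was reached by 11203 genes in 6694c2 and 11363 in B16F10, 10075 of them in both. Over the 17006 genes tested, which are not independent replicates, log2 of the mean CPM plus 1 correlated between the lines with a Pearson r of 0.836. 6694c2 replicate 1 stood somewhat apart from the other two. Genes specific to B16F10 were not at 0 in 6694c2. Over 68 genes at 100 CPM or more in B16F10 and under 2% of that in 6694c2, the median 6694c2 sample value was 0.558% to 0.6% of the B16F10 level. For 109 genes specific to 6694c2 in the same way, the B16F10 samples held 0.14% to 0.211%. The genes were chosen for a low share, so these medians are a description, and the source of the reads was not tested.

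**Figure D1:**
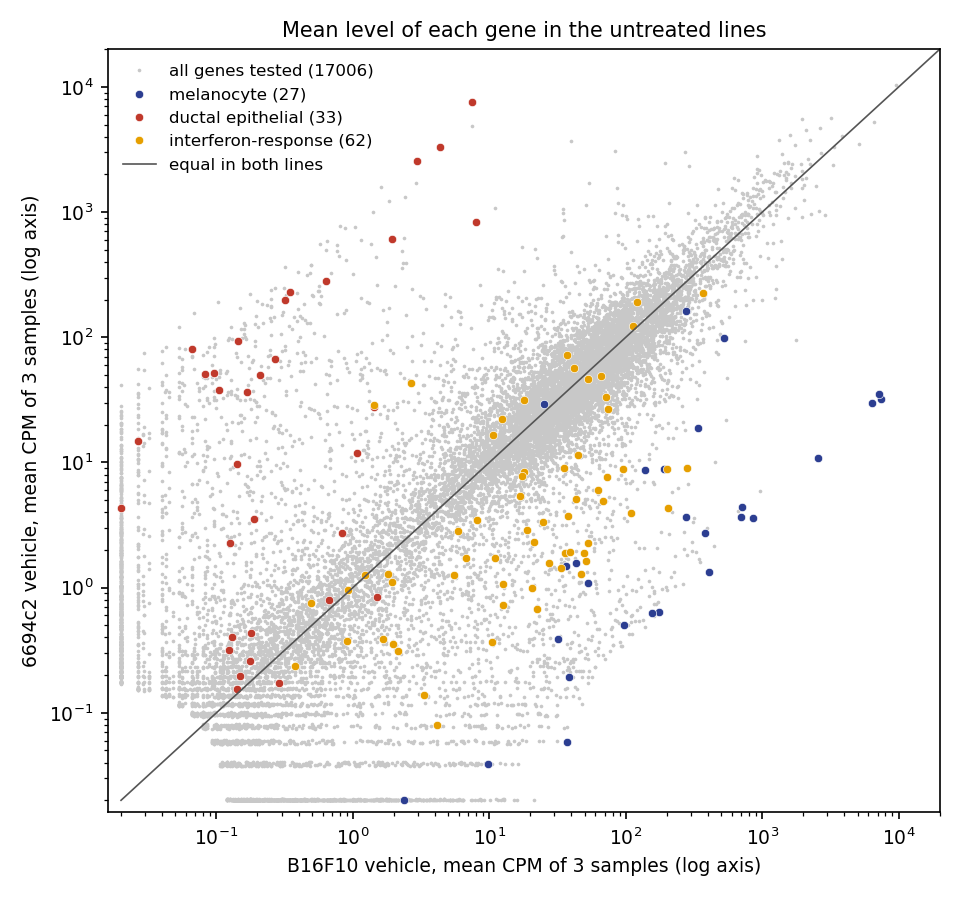
Mean CPM of each of the 17006 tested genes in B16F10 (x axis) and 6694c2 (y axis), both on log axes, means of 3 samples with values under 0.02 drawn at 0.02. Melanocyte genes lie far below the line of equal levels, most ductal epithelial genes far above it, and most interferon-response genes below it.

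Melanocyte genes were low in 6694c2. Of 30 genes listed, 27 were tested and 26 were lower in 6694c2, 25 of them over 2-fold, beside 36.1% lower among all genes. The median log2 fold change was -7.33. Dct, which converts dopachrome (ENSMUSG00000022129, chromosome 14 from 118012792 to 118052246), had 30.6, 32.5 and 33 CPM in 6694c2 and 7463, 7259 and 7671 CPM in B16F10 samples. Tyrp1, which acts beside it (ENSMUSG00000005994, chromosome 4 from 80834123 to 80851719), had 29.6, 29.7 and 30.4 CPM in 6694c2 and 6397, 6415 and 6388 CPM in B16F10 samples. In both, the lowest B16F10 sample was over 100 times the highest 6694c2 sample, with log2 fold changes of -7.87 (SE 0.0715, adjusted p = 1.53e-21, edgeR) and -7.74 (SE 0.0678, adjusted p = 1.32e-21, edgeR). Tyr, the enzyme that limits melanin synthesis (ENSMUSG00000004651, chromosome 7 from 87424771 to 87493512), had 3.26, 3.75 and 4.02 CPM in 6694c2 and 668, 704 and 730.3 CPM in B16F10 samples (log2 fold change -7.57, SE 0.0896, adjusted p = 2.99e-20, edgeR). Per gene length Dct was the highest of the 3 enzymes in B16F10 at 3301 RPKM, Tyrp1 stood at 2263 and Tyr at 98.6. In 6694c2 they kept the same order at 14.2, 10.6 and 0.517 RPKM, 0.429%, 0.467% and 0.524% of the B16F10 levels. In bulk RNA, fewer cells with a transcript and less of it per cell cannot be told apart. All 3 enzymes meet the rule for the B16F10-specific genes above and are among them, so nothing follows from their closeness to those shares.

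The regulators were lower as well. Sox10 had 1.51, 1.45 and 1.03 CPM in 6694c2 and 412, 408 and 405 CPM in B16F10 samples (log2 fold change -8.24, SE 0.1, adjusted p = 3.71e-20, edgeR). Mitf had 4.02, 3.58 and 3.41 CPM in 6694c2 and 276, 269.6 and 289 CPM in B16F10 samples (log2 fold change -6.24, SE 0.0871, adjusted p = 1.07e-19, edgeR), or 1.32% of its B16F10 level, a larger share than the pigment enzymes kept. Pax3 stood at 0.501 ± 0.156 against 96.8 ± 3.32 CPM (SD, n = 3 each), and Foxd3 had no reads in any of the 6 samples. All 15 genes of the melanosome matrix and transport were lower. Pmel, which forms the fibrils on which melanin is laid down, had 10.2, 11.9 and 10.2 CPM in 6694c2 and 2541, 2618 and 2562 CPM in B16F10 samples (log2 fold change -7.89, SE 0.0801, adjusted p = 5.66e-21, edgeR). Mlana had 4.41 ± 0.178 against 712 ± 24.5 CPM (SD, n = 3 each) and Gpnmb, a melanosome glycoprotein also made by macrophages, 35.2 ± 0.778 against 7190.0 ± 28.9 CPM (SD, n = 3 each). Not every member was near absent from 6694c2. Mlph and Myo5a, which with Rab27a tether melanosomes to actin and also carry other vesicles, stood at 163 ± 9.06 and 98.4 ± 13.5 CPM there against 274 ± 12.9 and 520.3 ± 24.2 in B16F10 (SD, n = 3 each). Mlph was the called member with the smallest fall, -0.75 on the log2 scale. Erbb3, a receptor of neural crest cells that epithelia also carry, was the 1 member called higher (log2 fold change 0.22, adjusted p = 0.0282, edgeR), a call lost without B16F10 replicate 1 or 3 or 6694c2 replicate 1 or 2. Mc1r, the melanocortin receptor, had 0.699, 0.559 and 0.609 CPM in 6694c2 and 149, 159 and 159 CPM in B16F10 samples (log2 fold change -7.95, SE 0.116, adjusted p = 1.53e-19, edgeR). Kit and Ednrb, receptors that melanoblasts use, had 1 and 0 reads over the 6 samples, so these receptors were near absent from both lines at this depth. Checked against its defining markers, B16F10 carried all 3 pigment enzymes, all 15 melanosome genes and 4 of the 5 listed regulators.

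**Figure D2:**
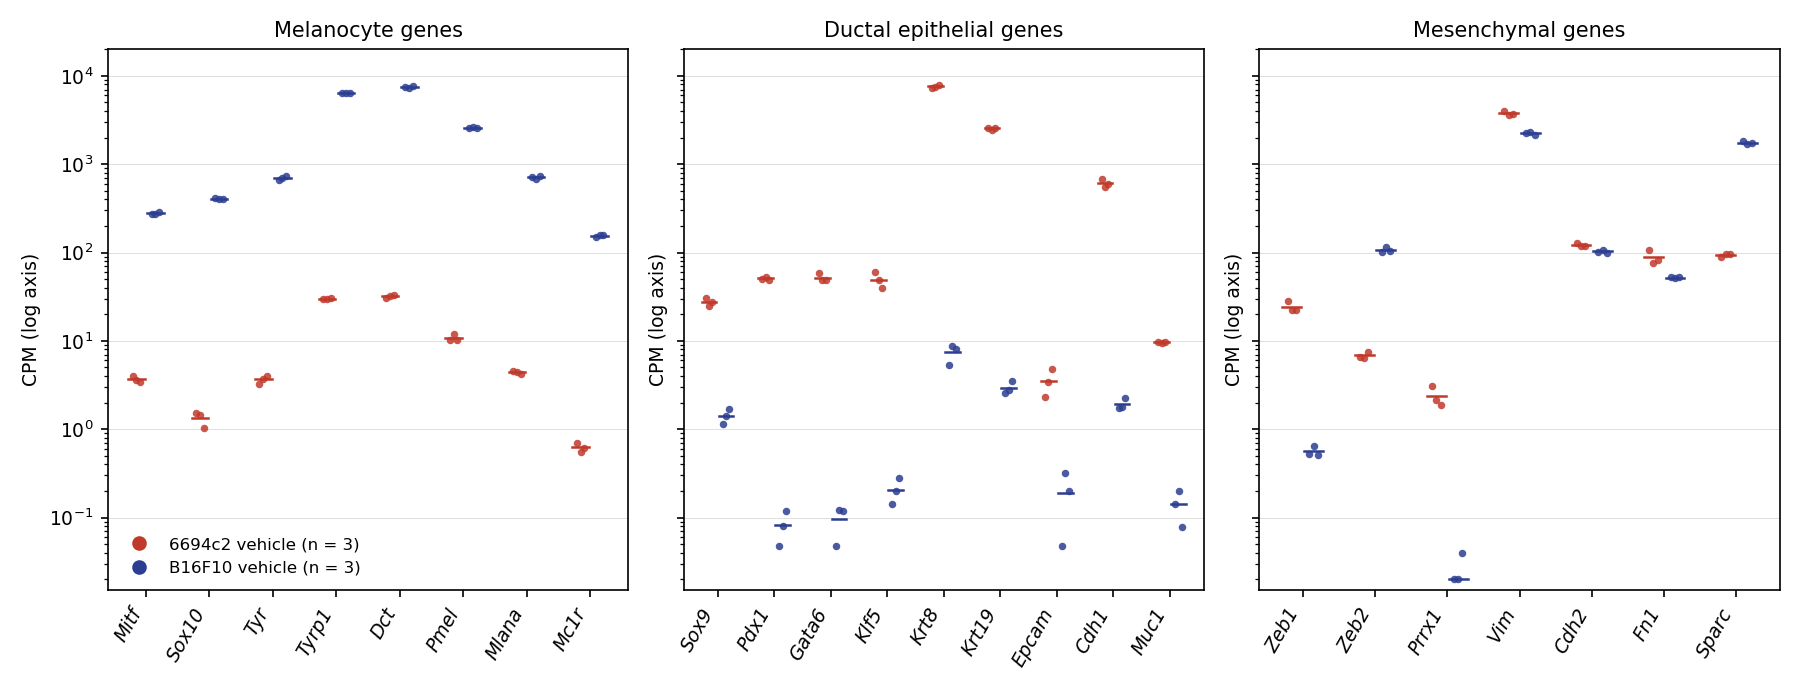
CPM on a log axis of the lead melanocyte, ductal epithelial and mesenchymal genes in each of the 3 6694c2 (red) and 3 B16F10 (blue) vehicle samples, with bars at the means and values under 0.02 drawn at 0.02. The 2 lines do not overlap for any gene shown. Melanocyte genes are high in B16F10, ductal genes in 6694c2, and the mesenchymal genes are divided.

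Ductal epithelial genes were high in 6694c2, with gaps. Of 37 listed, 33 were tested and 25 were higher, all over 2-fold, beside 18.2% of all genes, while 1 was lower and 7 were not called. The median log2 fold change was 7.72, or 6.69 with the 1 gene without reads in B16F10 placed at the bound that 3 reads over the group give. Keratins led the group. Krt8 (ENSMUSG00000049382, chromosome 15 from 101996711 to 102004342) had 7349, 7550.0 and 7838 CPM in 6694c2 and 5.4, 8.74 and 8.12 CPM in B16F10 samples (log2 fold change 9.98, SE 0.125, adjusted p = 3.98e-20, edgeR). Krt19, the keratin that marks ducts in the pancreas (ENSMUSG00000020911, chromosome 11 from 100140810 to 100148665), had 2575, 2467 and 2577 CPM in 6694c2 and 2.58, 2.77 and 3.49 CPM in B16F10 samples (log2 fold change 9.74, SE 0.0953, adjusted p = 3.88e-21, edgeR). Krt18, the partner of Krt8, stood at 3282 ± 291 against 4.38 ± 0.816 CPM (SD, n = 3 each). Per length, Krt8 was the highest in 6694c2 at 4199 RPKM, then Krt18 at 2344, Krt19 at 1369, Krt20 at 145 and Krt7 at 27.9.

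Of the 13 transcription factors tested, 11 were higher. Among these the call of Ehf was lost without B16F10 replicate 2 or 3 or 6694c2 replicate 1 or 2. Hnf4a, a factor of gut and liver epithelium, had 243, 221 and 228 CPM in 6694c2 and 0.287, 0.401 and 0.357 CPM in B16F10 samples (log2 fold change 9.33, SE 0.118, adjusted p = 4.22e-20, edgeR). Pdx1, the factor of the pancreas anlage whose promoter drove Cre in the founder mice, had 50.8, 52.7 and 49.2 CPM in 6694c2 and 0.0478, 0.0802 and 0.119 CPM in B16F10 samples (log2 fold change 9.14, SE 0.177, adjusted p = 5.08e-18, edgeR). Gata6, a factor linked to the classical epithelial state of PDAC, had 58.9, 48.6 and 49 CPM in 6694c2 and 0.0478, 0.12 and 0.119 CPM in B16F10 samples (log2 fold change 8.96, SE 0.199, adjusted p = 3.19e-17, edgeR). Foxa2 and Klf5 had log2 fold changes of 10.04 and 7.83, and in B16F10 both stayed under 0.3 CPM in every sample. Sox9, the duct factor that melanocytes can also use, had 30.4, 25.1 and 27.8 CPM in 6694c2 and 1.15, 1.4 and 1.7 CPM in B16F10 samples (log2 fold change 4.27, SE 0.145, adjusted p = 1.24e-14, edgeR). Foxa1 was the member called lower, at 0.845 ± 0.338 against 1.51 ± 0.113 CPM (SD, n = 3 each), a call lost without B16F10 replicate 2 or 3 or 6694c2 replicate 1 or 2 (adjusted p = 0.035 with all 6, edgeR). Grhl2, which guards epithelial junctions, had 0.291, 0.168 and 0.0609 CPM in 6694c2 and 0.143, 0.281 and 0.436 CPM in B16F10 samples and was not called (adjusted p = 0.403, edgeR).

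Junction genes were uneven. Cdh1, which encodes E-cadherin (ENSMUSG00000000303, chromosome 8 from 106603351 to 106670246), had 688, 556 and 596 CPM in 6694c2 and 1.72, 1.8 and 2.26 CPM in B16F10 samples (log2 fold change 8.3, SE 0.117, adjusted p = 1.14e-19, edgeR), and Ocln, a tight junction protein, 14.7 ± 0.109 against 0.0264 ± 0.0457 CPM (SD, n = 3 each). Epcam, which most carcinomas of the pancreas carry, reached only 2.33, 3.41 and 4.81 CPM in the 6694c2 samples and 0.0478, 0.321 and 0.198 in B16F10 (log2 fold change 4.12, SE 0.431, adjusted p = 1.22e-07, edgeR). The claudins Cldn3, Cldn4 and Cldn7 stayed under 1 CPM in all 6 samples and were not called, as were Rab25 and St14. Among secreted products, Spp1, which encodes osteopontin, had 756, 855 and 887 CPM in 6694c2 and 6.59, 8.26 and 9.23 CPM in B16F10 samples (log2 fold change 6.69, SE 0.104, adjusted p = 3.44e-19, edgeR). Tff1, a trefoil factor, had 81.1, 106 and 94 CPM in 6694c2 and 0.191, 0.12 and 0.119 CPM in B16F10 samples and Muc1 9.72, 9.45 and 9.74 CPM in 6694c2 and 0.143, 0.201 and 0.0792 CPM in B16F10 samples. Tff2 had no reads in B16F10 and 3.14, 5.37 and 4.38 CPM in 6694c2, at least 102-fold higher against a floor of 3 reads over the B16F10 group. Mmp7 had no reads, and Lcn2 was not called (adjusted p = 0.714, edgeR). So the 6694c2 samples carried the keratins and pancreas factors of their label at high levels, with Epcam low and the claudins near absent.

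Mesenchymal genes were split between the lines. Of 17 tested genes 8 were higher and 8 lower in 6694c2, beside 34.2% and 36.1% of all genes, and the median log2 fold change was -0.65. Zeb1 and Zeb2, related repressors of E-cadherin, went opposite ways. Zeb1 had 28.4, 22.6 and 22.2 CPM in 6694c2 and 0.525, 0.642 and 0.515 CPM in B16F10 samples (log2 fold change 5.42, SE 0.177, adjusted p = 7.60e-15, edgeR), and Zeb2 had 6.63, 6.37 and 7.55 CPM in 6694c2 and 103, 116 and 103 CPM in B16F10 samples (log2 fold change -3.97, SE 0.0924, adjusted p = 6.08e-17, edgeR). Vim, the vimentin filament gene, was high in both lines, with 4018, 3562 and 3688 CPM in 6694c2 and 2240.0, 2329 and 2162 CPM in B16F10 samples (log2 fold change 0.74, SE 0.0575, adjusted p = 1.97e-09, edgeR). N-cadherin, encoded by Cdh2, had 129, 119.9 and 120.0 CPM in 6694c2 and 103, 106 and 100.0 CPM in B16F10 samples (log2 fold change 0.26, adjusted p = 0.00109, edgeR). Both thus stood in 6694c2 beside Cdh1, and per length Vim at 792 RPKM was above Cdh1 at 134. Matrix genes were mostly lower in 6694c2, 5 of 7. Sparc, a collagen-binding glycoprotein, had 89.2, 96.5 and 97.5 CPM in 6694c2 and 1823, 1711 and 1728 CPM in B16F10 samples (log2 fold change -4.22, SE 0.0645, adjusted p = 2.75e-19, edgeR), while Fn1, which encodes fibronectin, had 108, 76.3 and 81.5 CPM in 6694c2 and 52.5, 51.8 and 52.2 CPM in B16F10 samples (log2 fold change 0.76, SE 0.0983, adjusted p = 1.75e-06, edgeR). The collagens Col1a1, Col1a2 and Col3a1 were under 3 CPM in all 6 samples. Twist1 had no reads, and Twist2 3 reads, all in 6694c2.

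Markers of other cell types were low. Of 15 acinar and endocrine genes, 14 had fewer than 10 reads over the 6 samples, among them Cpa1 and Ins2 with 0. The exception was Cela1, an elastase, which was called higher at 49 ± 1.5 CPM in 6694c2 and 25.1 ± 1.48 in B16F10 (SD, n = 3 each). Of 26 immune and stromal markers 15 were tested, of which Lat, Cd68, Lyz2 and Pdgfrb were lower in 6694c2 and the other 11 were not called. Cd3d, Cd3e, Cd4, Cd8a and Itgam had no reads. Ptprc, the marker of all leukocytes, had 1.75, 1.17 and 1.28 CPM in 6694c2 and 0.812, 0.762 and 1.86 CPM in B16F10 samples, with overlapping groups. The 5 B-cell markers were all detected and were not called (lowest adjusted p = 0.0968, for Cd79a, edgeR). Their summed level was 13.9 to 17.6 CPM in 6694c2 samples and 4.97, 15.4 and 14.7 in B16F10, so that B16F10 replicate 1 was the low sample. Myeloid markers summed to 2.38 to 2.79 CPM in 6694c2 and 11 to 15.1 in B16F10. The B-cell values are given again beside the class II genes, which moved with them.

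Growth and driver genes differed in both directions, with 19 of 30 tested genes higher (63.3%, beside 34.2% of all genes) and 9 lower (30%, beside 36.1%). Nras, a RAS GTPase, had 187, 188 and 179.6 CPM in 6694c2 and 77.2, 84.7 and 93.2 CPM in B16F10 samples (log2 fold change 1.12, SE 0.0688, adjusted p = 7.55e-11, edgeR). Braf and Met, a kinase below RAS and a receptor above it, were lower in 6694c2, with log2 fold changes of -1.18 and -1.04 (adjusted p = 1.36e-08 and 1.96e-09, edgeR). Egfr had 16.2, 10.4 and 11.2 CPM in 6694c2 and 0, 0.0401 and 0.0396 CPM in B16F10 samples (adjusted p = 9.71e-13, edgeR). With 2 reads over the B16F10 group its ratio was 447 (exact 95% counting interval 123 to 3700). Etv4, a target of the RAS to ERK route, had 77, 87.2 and 88.9 CPM in 6694c2 and 5.68, 5.29 and 5.39 CPM in B16F10 samples (log2 fold change 3.95, SE 0.091, adjusted p = 5.23e-17, edgeR), and the ERK feedback genes Dusp6 and Spry4 differed by 0.6 and 0.59 on the log2 scale (adjusted p = 5.73e-08 and 0.00474, edgeR). Myc had 119.8, 121 and 120.5 CPM in 6694c2 and 35, 31.4 and 29.1 CPM in B16F10 samples (log2 fold change 1.92, SE 0.0725, adjusted p = 6.09e-14, edgeR).

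Of 8 tested genes among p53 and the inhibitors of the cell cycle 5 were higher in 6694c2 (62.5%, beside 34.2% of all genes). The other 3 were lower (37.5%, beside 36.1%), and the median log2 fold change was 0.41. Cdkn1a, a p53 target that encodes the inhibitor p21 (ENSMUSG00000023067, chromosome 17 from 29090979 to 29100722), had 21, 23 and 21.6 CPM in 6694c2 and 550.3, 536 and 547 CPM in B16F10 samples (log2 fold change -4.64, SE 0.0674, adjusted p = 1.47e-19, edgeR). Mdm2, which both answers to p53 and degrades it, had 49.8, 53 and 47.1 CPM in 6694c2 and 187, 172 and 174 CPM in B16F10 samples (log2 fold change -1.83, SE 0.0667, adjusted p = 3.69e-14, edgeR). Trp53 itself was higher, with 214, 202 and 195 CPM in 6694c2 and 106, 106 and 95 CPM in B16F10 samples (log2 fold change 0.99, SE 0.064, adjusted p = 1.53e-10, edgeR). The reads were counted over the whole gene, so they cannot show whether the floxed part was transcribed. Cdkn2a and Cdkn2b, neighbours that encode cell cycle inhibitors, had 3 and 1 reads over the 6 samples, so RNA from this locus was not detectable beyond these reads. D-type cyclins were divided among the lines. Ccnd1 had 864, 805 and 754 CPM in 6694c2 and 364, 333 and 334 CPM in B16F10 samples (log2 fold change 1.23, SE 0.063, adjusted p = 5.06e-12, edgeR), whereas Ccnd2 and Ccnd3 were lower at log2 fold changes of -1.42 and -2.88 (adjusted p = 6.94e-13 and 8.05e-16, edgeR). Mki67, a marker of cycling cells, had 316, 293 and 293 CPM in 6694c2 and 238, 241 and 189 CPM in B16F10 samples (log2 fold change 0.43, adjusted p = 8.63e-05, edgeR), with no overlap of the groups. Xist, the RNA of the inactive X chromosome, had 104, 60.7 and 70.6 CPM in 6694c2 and 0.382, 0.0802 and 0.277 CPM in B16F10 samples (log2 fold change 8.32, SE 0.286, adjusted p = 1.51e-14, edgeR). The founder mice of 6694c2 were female, and the sex of the B16F10 founder is not given in the sources used here. The Y genes Ddx3y and Eif2s3y stayed under 0.4 CPM in every sample of both lines.

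The called genes with the largest folds at 100 CPM or more in each sample of the higher line included lineage genes but also others. Among those higher in 6694c2 were Arl4c, Mrc1, Nrn1, Gldc, Krt8, Efnb2 and Lgals2. Arl4c, a small GTPase, had 154, 161 and 155 CPM in 6694c2 and 0.0478, 0.0802 and 0.0792 CPM in B16F10 samples (log2 fold change 11, SE 0.143, adjusted p = 5.04e-20, edgeR). Mrc1, known as the mannose receptor of macrophages, had 226, 224 and 218 CPM in 6694c2 and 0.0478, 0.201 and 0.277 CPM in B16F10 samples (log2 fold change 10.2, SE 0.143, adjusted p = 1.09e-19, edgeR), while the summed myeloid markers stayed at 2.38 to 2.79 CPM. Gldc, the glycine decarboxylase of mitochondria, had 168, 178 and 169.7 CPM in 6694c2 and 0.0478, 0.201 and 0.198 CPM in B16F10 samples. Lgals2, a galectin of gut epithelium, had 1455, 1742 and 1593 CPM in 6694c2 and 0.717, 1.8 and 2.34 CPM in B16F10 samples, and Efnb2, an ephrin ligand, 208, 192 and 188 CPM in 6694c2 and 0.191, 0.281 and 0.119 CPM in B16F10 samples. These 7 had log2 fold changes between 9.9 and 11. Lower in 6694c2 were Sox10, Tbx2, Tspan10, Car14, Aph1c, Mc1r, Atp6v0e2 and Emilin1. Tbx2, a T-box repressor active in melanocytes, had 0.466, 0.559 and 0.426 CPM in 6694c2 and 139.9, 138 and 138 CPM in B16F10 samples (log2 fold change -8.14, SE 0.118, adjusted p = 1.47e-19, edgeR). Tspan10, a tetraspanin of pigment cells, had 0.466, 0.671 and 0.792 CPM in 6694c2 and 167, 178 and 180.5 CPM in B16F10 samples (log2 fold change -8.08, SE 0.121, adjusted p = 2.15e-19, edgeR). Car14, a carbonic anhydrase, had 0.407, 0.894 and 0.487 CPM in 6694c2 and 162, 159 and 161 CPM in B16F10 samples, and Emilin1, an elastic fibre glycoprotein, 0.291, 0.559 and 0.792 CPM in 6694c2 and 133, 135 and 136 CPM in B16F10 samples. The 8 log2 fold changes ran from -8.24 to -7.93.

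Interferon-response genes were low in untreated 6694c2 cells relative to B16F10. Of 62 tested, 46 were lower (74.2%, beside 36.1% of all genes), 43 of them over 2-fold (20.9% of all genes), 7 were higher and 9 were not called. The median log2 fold change was -2.29. No interferon had been added, and of the interferon genes listed Ifnb1, Ifna4, Ifnl2 and Ifnl3 had 0 reads and Ifng 1 read over the 6 samples. Isg15, a ubiquitin-like modifier (ENSMUSG00000035692, chromosome 4 from 156199424 to 156200818), had 2.85, 1.34 and 1.46 CPM in 6694c2 and 50.3, 44.9 and 52.2 CPM in B16F10 samples (log2 fold change -4.7, SE 0.16, adjusted p = 1.36e-14, edgeR). Ifit1, which binds foreign RNA caps (ENSMUSG00000034459, chromosome 19 from 34640871 to 34650009), had 2.5, 2.07 and 2.19 CPM in 6694c2 and 48.6, 55.9 and 55.2 CPM in B16F10 samples (log2 fold change -4.56, SE 0.117, adjusted p = 2.31e-16, edgeR). The promoters of both carry the response element core shown above. Bst2, which tethers virions to the membrane, had 7.62, 9.89 and 8.95 CPM in 6694c2 and 201, 191 and 207 CPM in B16F10 samples (log2 fold change -4.5, SE 0.0874, adjusted p = 5.27e-18, edgeR). Ifitm3, which blocks viral fusion, had 4.83, 3.8 and 4.38 CPM in 6694c2 and 197, 206 and 214 CPM in B16F10 samples (log2 fold change -5.57, SE 0.0908, adjusted p = 5.19e-19, edgeR). In each of these 4 genes the lowest B16F10 sample was over 10 times the highest 6694c2 sample. Per length, the list's highest levels in untreated B16F10 were those of Ifitm3 at 303 RPKM, Bst2 at 221 and Ifi27 at 192, and the same genes stood at 6.4, 9.77 and 6.15 RPKM in 6694c2. Ifitm2, a paralog of Ifitm3, was at 174 RPKM in B16F10 and 188 in 6694c2 and was not called (adjusted p = 0.186, edgeR).

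By role, 20 of 28 antiviral effectors (71.4%) and 16 of 19 sensors and regulators (84.2%) were lower, beside 36.1% of all genes. So were 6 of 7 others (85.7%) and 4 of 8 GTPases (50%). Of the other GTPases 1 was higher and 3 were not called. Irf9, a factor of the type I response (ENSMUSG00000002325, chromosome 14 from 55603571 to 55610030), had 4.95, 4.97 and 5.36 CPM in 6694c2 and 43.5, 41.8 and 44.4 CPM in B16F10 samples (log2 fold change -3.08, SE 0.0956, adjusted p = 3.41e-15, edgeR), and Usp18, which shuts off the type I receptor, 1.63, 1.01 and 2.25 CPM in 6694c2 and 46.5, 48.8 and 56.9 CPM in B16F10 samples (log2 fold change -4.97, SE 0.16, adjusted p = 5.97e-15, edgeR). Ccl5, a T cell chemokine, had 0.466, 0.447 and 0.183 CPM in 6694c2 and 10.8, 10.4 and 9.98 CPM in B16F10 samples (log2 fold change -4.8, SE 0.232, adjusted p = 2.25e-12, edgeR). The members that did not follow were of several kinds. Isg20, an RNA exonuclease, had 36, 46.4 and 47.3 CPM in 6694c2 and 2.39, 3.05 and 2.62 CPM in B16F10 samples (log2 fold change 4, SE 0.135, adjusted p = 1.12e-14, edgeR) and Oasl1, which restrains Irf7 translation, 28.5, 30.2 and 28.3 CPM in 6694c2 and 1.48, 1.12 and 1.66 CPM in B16F10 samples (log2 fold change 4.35, SE 0.135, adjusted p = 3.56e-15, edgeR). Trim25, Irf1, Lgals9 and Samd9l were called higher, with log2 fold changes of 0.96, 0.84, 0.67 and 0.43. Irf7, the factor that amplifies interferon-α, had 1.46, 0.782 and 0.609 CPM in 6694c2 and 0.573, 0.882 and 1.31 CPM in B16F10 samples and overlapping groups (adjusted p = 0.956, edgeR). Gbp2, a GTPase that IFNγ induces, was called higher at 36.1, 34.2 and 23.8 CPM in 6694c2 and 9.22, 27.4 and 17.4 CPM in B16F10 samples (log2 fold change 0.79, SE 0.239, adjusted p = 0.00708, edgeR). The groups overlapped, and DESeq2 did not call it (adjusted p = 0.118). Its log2 fold change was 0.49 without B16F10 replicate 1 (adjusted p = 0.0346, edgeR), the sample that was also low in B-cell markers, with a summed 4.97 CPM against 13.9 to 17.6 in the other 5 samples. The part of B-cell RNA in the Gbp2 value was not tested. Iigp1 had 19.3, 18.7 and 11.7 CPM in 6694c2 and 2.72, 17.6 and 11.6 CPM in B16F10 samples and was not called (adjusted p = 0.125, edgeR). The untreated level was also set against the level of the same line after 24 h with IFNβ at 1000 U/mL. Over the 62 genes the vehicle level was a median of 2.01% of the IFNβ level in 6694c2 (quartiles 0.561% and 7.05%) and 8.93% in B16F10 (quartiles 5.48% and 18.5%). The percentage was higher in B16F10 for 54 of the 62. It also depends on the level reached with IFNβ, so it is not a measure of the untreated level alone. Irf7, with overlapping vehicle samples, was at 0.0964% in 6694c2 and 34.8% in B16F10, with IFNβ levels of 969.6 and 2.65 CPM. Ifit2 had the higher IFNβ level in B16F10, 817.6 CPM against 190 in 6694c2. Some members did not stand higher with IFNβ. Ifi27 without interferon was at 300% of its IFNβ level in B16F10 and at 28.3% in 6694c2. Ifitm2 was at 102% in 6694c2 and 88.4% in B16F10. Ccl5 was at 114% in 6694c2, where its level was under 1 CPM, and at 69.2% in B16F10. Relative to IFNγ the medians were 5.47% and 11.6%. The percentages for both interferons rest on the same vehicle samples and are given without a test.

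**Figure D3:**
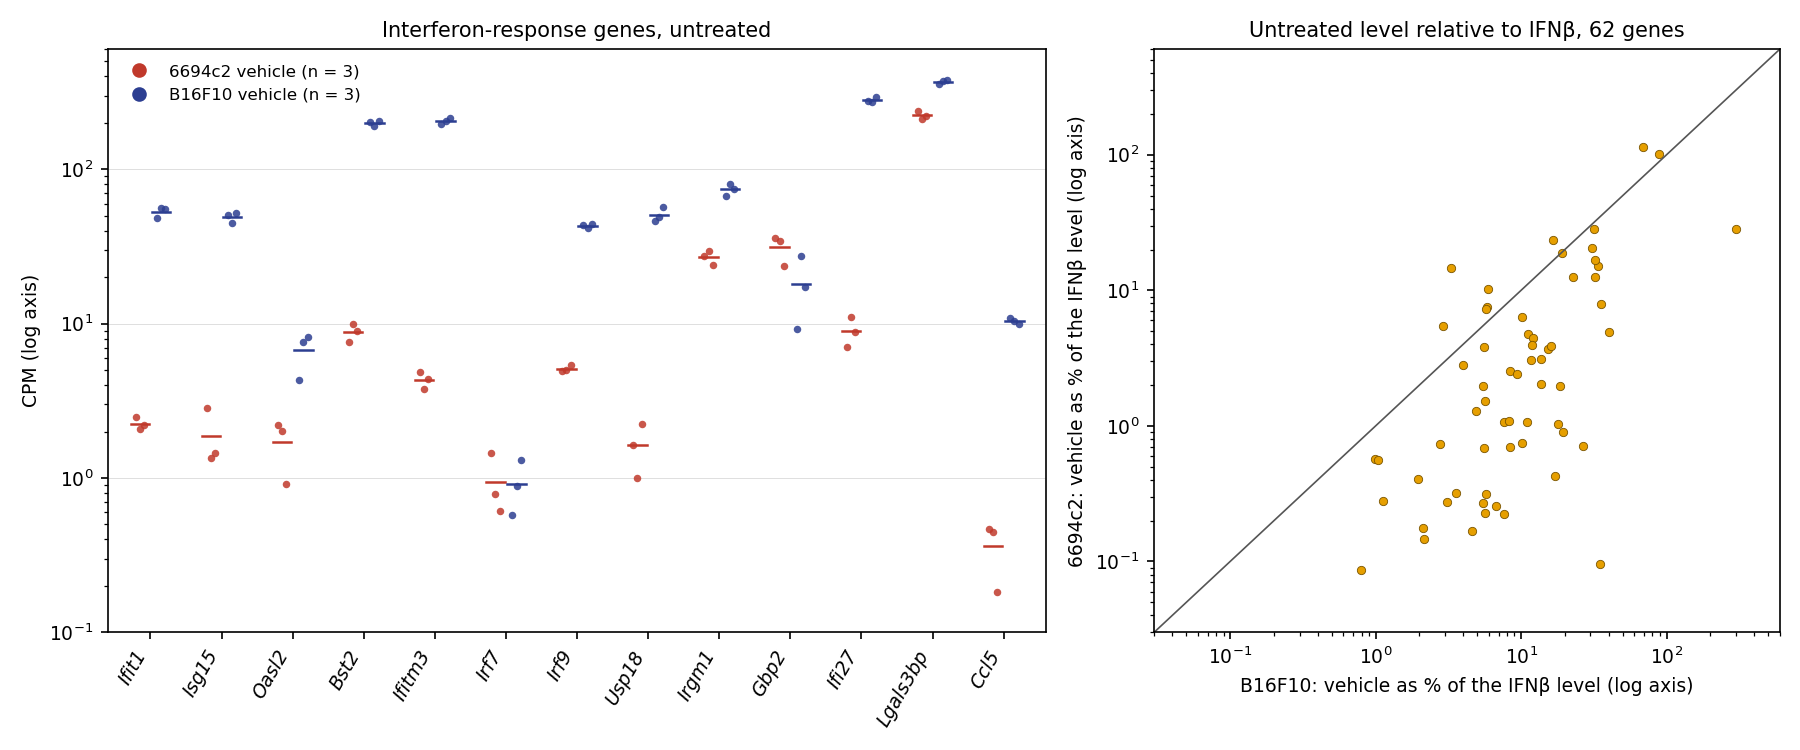
Left, CPM on a log axis of lead interferon-response genes in each vehicle sample of 6694c2 (red) and B16F10 (blue), n = 3 each, with bars at the means. Right, the vehicle mean as a percent of the IFNβ mean of the same line for 62 interferon-response genes, B16F10 on the x and 6694c2 on the y axis, both log axes. Most lead genes are lower in 6694c2, Irf7 overlaps and Gbp2 is higher there on average with overlapping samples, and 54 of 62 points on the right lie below the line of equal percentages.

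Receptors and signalling genes did not share this direction. Of 19 tested, 10 were higher (52.6%, beside 34.2% of all genes) and 8 lower (42.1%, beside 36.1%). The median log2 fold change was 0.22. Receptor chains for type I interferon were lower in 6694c2. Ifnar1 had 39.1, 40.4 and 37.1 CPM in 6694c2 and 51.3, 54 and 56.9 CPM in B16F10 samples (log2 fold change -0.48, SE 0.0714, adjusted p = 1.07e-05, edgeR) and Ifnar2 18, 23 and 20.3 CPM in 6694c2 and 35.9, 33.8 and 36.7 CPM in B16F10 samples (log2 fold change -0.8, SE 0.0912, adjusted p = 4.03e-07, edgeR). The IFNγ receptor was the reverse. Ifngr1, its ligand-binding chain (ENSMUSG00000020009, chromosome 10 from 19591949 to 19610229), had 128, 127 and 122 CPM in 6694c2 and 15.7, 14.9 and 16.2 CPM in B16F10 samples (log2 fold change 3.01, SE 0.0705, adjusted p = 6.58e-17, edgeR), and Ifngr2 81.2, 82.8 and 84.8 CPM in 6694c2 and 68.5, 71.9 and 73.1 CPM in B16F10 samples (log2 fold change 0.22, SE 0.062, adjusted p = 0.00419, edgeR). The call of Ifngr2, as of Cdh2 above, was lost with total reads in place of TMM. Ifnlr1, the chain specific to the type III interferons of epithelia, had 7.74, 11.1 and 9.87 CPM in 6694c2 and 0.143, 0.12 and 0.555 CPM in B16F10 samples (log2 fold change 5.06, SE 0.311, adjusted p = 7.62e-11, edgeR), while its partner Il10rb was lower (log2 fold change -2.26, adjusted p = 1.05e-13, edgeR). Jak1, used by all of these receptors, had 205, 191 and 181 CPM in 6694c2 and 128, 139 and 137 CPM in B16F10 samples (log2 fold change 0.52, SE 0.0629, adjusted p = 8.90e-07, edgeR) and Jak2, used by the IFNγ receptor, 98.2, 93 and 82.4 CPM in 6694c2 and 24.6, 26.8 and 25 CPM in B16F10 samples (log2 fold change 1.84, SE 0.0782, adjusted p = 3.44e-13, edgeR). Tyk2, used by the type I receptor, had 23.8, 19.7 and 21.6 CPM in 6694c2 and 29.9, 27.9 and 27.5 CPM in B16F10 samples (log2 fold change -0.39, SE 0.0882, adjusted p = 7.72e-04, edgeR). Among the brakes, Socs3 had 36.3, 34.9 and 38.7 CPM in 6694c2 and 4.3, 5.17 and 3.65 CPM in B16F10 samples (log2 fold change 3.06, SE 0.116, adjusted p = 6.29e-14, edgeR) and Socs1 2.85, 3.02 and 2.07 CPM in 6694c2 and 0.621, 1 and 1.15 CPM in B16F10 samples (log2 fold change 1.5, SE 0.291, adjusted p = 1.79e-04, edgeR). Receptor and kinase RNA was thus present in both lines, while Stat2 and Irf9, which are both parts of the route and its targets, were at 3.48 ± 0.466 and 5.09 ± 0.231 CPM in 6694c2 and 8.18 ± 1.37 and 43.2 ± 1.32 CPM in B16F10 (SD, n = 3 each).

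Inflammasome genes aside, the DNA-sensing list differed most at Sting1, the adaptor, and at Enpp1, an enzyme that removes its ligand. Of the 17 tested genes 7 were higher and 7 lower (41.2% each, beside 34.2% and 36.1% of all genes). The median log2 fold change was 0.26. Cgas had 7.33, 7.32 and 6.46 CPM in 6694c2 and 14.4, 12.2 and 13.9 CPM in B16F10 samples (log2 fold change -0.94, SE 0.118, adjusted p = 1.42e-06, edgeR). Sting1 had 1.4, 2.4 and 1.95 CPM in 6694c2 and 28, 29.2 and 29.6 CPM in B16F10 samples (log2 fold change -3.91, SE 0.14, adjusted p = 2.93e-14, edgeR). Of its 6694c2 samples the highest was under 10% of the lowest B16F10 sample. The parts after STING differed by less. Tbk1 had 39, 40.02 and 40.01 CPM in 6694c2 and 34.1, 32.2 and 33.2 CPM in B16F10 samples (log2 fold change 0.26, adjusted p = 0.00334, edgeR), Ikbke 8.32, 9.56 and 11.2 CPM in 6694c2 and 10.1, 10.3 and 10.2 CPM in B16F10 samples (adjusted p = 0.609, edgeR) and Irf3 21.9, 20.9 and 22.6 CPM in 6694c2 and 32.2, 29.4 and 29 CPM in B16F10 samples (log2 fold change -0.47, adjusted p = 6.59e-05, edgeR). The call of Tbk1 was lost with total reads in place of TMM. Enpp1, the ectoenzyme that hydrolyses extracellular cGAMP (ENSMUSG00000037370, chromosome 10 from 24637914 to 24712159), had 85.8, 72.4 and 79.2 CPM in 6694c2 and 0.239, 0.321 and 0.396 CPM in B16F10 samples (log2 fold change 7.91, SE 0.148, adjusted p = 3.17e-18, edgeR). Its groups stood 248-fold apart in mean CPM. Trex1, the main cytosolic DNA exonuclease, had 0 reads in all 6 samples, a value that is uncertain because the treatment of reads in overlapping genes is not stated. Dnase2a and Rnaseh2b, nucleases of the lysosome and nucleus, had log2 fold changes of 0.58 and 0.68 and were called higher. Inflammasome genes were mixed. Aim2, which senses DNA apart from STING, had 6.99, 6.09 and 6.15 CPM in 6694c2 and 1.86, 1.56 and 1.62 CPM in B16F10 samples (log2 fold change 1.93, SE 0.18, adjusted p = 2.67e-08, edgeR), and Gsdmd, the pore protein of pyroptosis, 55, 61.1 and 58.3 CPM in 6694c2 and 1.43, 1.04 and 1.15 CPM in B16F10 samples (log2 fold change 5.59, SE 0.12, adjusted p = 2.03e-17, edgeR). Pycard, the adaptor that links Aim2 to caspase, was low in both lines, with 0.233, 0 and 0.244 CPM in 6694c2 and 1.77, 1.4 and 2.06 CPM in B16F10 samples (log2 fold change -3.44, adjusted p = 1.42e-05, edgeR), and Casp1 was under 1 CPM in all samples and not called.

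RNA sensing was lower in 6694c2, with 11 of 14 genes lower (78.6%, beside 36.1% of all genes) and 1 higher. The median log2 fold change was -1.06. Rigi, called Ddx58 in older annotation, had 8.38, 6.88 and 7.49 CPM in 6694c2 and 69.1, 73.7 and 75.5 CPM in B16F10 samples (log2 fold change -3.26, SE 0.0899, adjusted p = 6.47e-16, edgeR). Ifih1, which encodes MDA5, had 1.92, 1.45 and 2.25 CPM in 6694c2 and 35.5, 37.3 and 35.2 CPM in B16F10 samples (log2 fold change -4.27, SE 0.13, adjusted p = 2.65e-15, edgeR). Both are interferon-response genes and are counted in that list as well, as are 6 other genes of these 14. Of the 6 genes outside the interferon-response list 5 were lower, by smaller amounts. Mavs, the mitochondrial adaptor, had 22.1, 19.3 and 20.4 CPM in 6694c2 and 46.5, 48.7 and 46.5 CPM in B16F10 samples (log2 fold change -1.2, SE 0.0779, adjusted p = 1.70e-10, edgeR) and Adar, which edits double-stranded RNA, 53.5, 47 and 42.6 CPM in 6694c2 and 83.3, 81.2 and 79.9 CPM in B16F10 samples (log2 fold change -0.77, SE 0.0774, adjusted p = 7.15e-08, edgeR). Toll-like and NOD-like receptors were divided, 7 higher (41.2%) and 5 lower (29.4%) of 17 tested, beside 34.2% and 36.1% of all genes. The median log2 fold change was 0.43. The median was -0.03 over the genes that a filter on expression kept, so it rests on genes of low level. Cd14, the co-receptor for endotoxin, had 40.6, 37.1 and 39.5 CPM in 6694c2 and 0.0955, 0 and 0 CPM in B16F10 samples (adjusted p = 1.46e-16, edgeR), a ratio of 1390 (exact 95% counting interval 384 to 11500) with 2 reads in B16F10, while Tlr4 had 31.3, 26.1 and 28.6 CPM in 6694c2 and 28.9, 31.2 and 28.4 CPM in B16F10 samples and was not called (adjusted p = 0.685, edgeR). Tlr3, a sensor of double-stranded RNA in endosomes, had 5.3, 4.7 and 5.72 CPM in 6694c2 and 17.9, 22.5 and 20.4 CPM in B16F10 samples (log2 fold change -1.96, SE 0.125, adjusted p = 1.29e-10, edgeR). Its adaptor Ticam1 was lower too (log2 fold change -1.67, adjusted p = 2.12e-10, edgeR) and Myd88, used by most other receptors, higher (log2 fold change 1.13, adjusted p = 5.66e-10, edgeR). Tlr7 and Tlr9 stayed under 0.4 CPM in every sample.

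**Figure D4:**
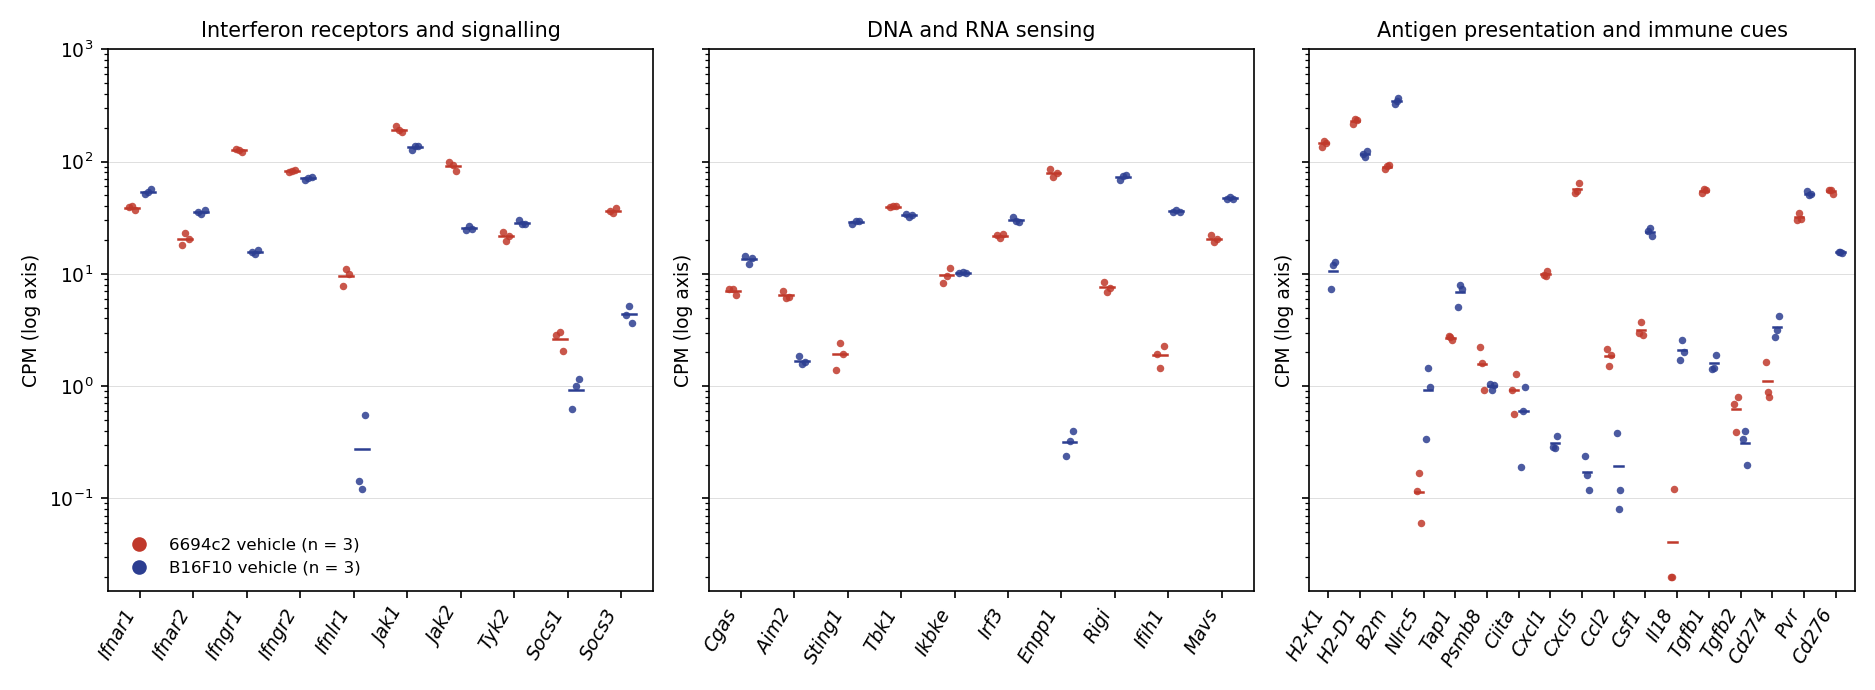
CPM on a log axis of lead genes of interferon receptors and signalling, DNA and RNA sensing, and antigen presentation and immune cues in the 3 6694c2 (red) and 3 B16F10 (blue) vehicle samples, with bars at the means and values under 0.02 drawn at 0.02. Ifngr1, Ifnlr1, Enpp1, Cxcl5 and Tgfb1 are high in 6694c2, Sting1, Rigi, Ifih1 and B2m in B16F10, and Tbk1, Ikbke and Irf3 lie close together.

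Class I genes did not all follow the interferon-response list. Of 6 genes in the class I role 4 were higher (66.7%, beside 34.2% of all genes) and 2 lower (33.3%, beside 36.1%). H2-K1 (ENSMUSG00000061232, chromosome 17 from 33996017 to 34000333) had 135, 151 and 148 CPM in 6694c2 and 7.26, 12 and 12.8 CPM in B16F10 samples (log2 fold change 3.75, SE 0.128, adjusted p = 1.40e-14, edgeR) and H2-D1 217, 237 and 233 CPM in 6694c2 and 117, 111 and 124 CPM in B16F10 samples (log2 fold change 0.97, SE 0.0623, adjusted p = 1.46e-10, edgeR), both higher in 6694c2. B2m, the shared light chain (ENSMUSG00000060802, chromosome 2 from 122147686 to 122153083), had 86, 90.9 and 94 CPM in 6694c2 and 328, 346 and 371 CPM in B16F10 samples (log2 fold change -1.95, SE 0.0644, adjusted p = 8.87e-15, edgeR) and was lower. H2 genes have near-identical paralogs, and how reads matching several of them were counted is not given in the sources used here, so single H2 values are uncertain. Per length, B2m exceeded the 2 heavy chains in both lines, at 105 RPKM in 6694c2 beside 55.5 for H2-K1 and 88.7 for H2-D1, and at 405 in B16F10 beside 4.1 and 45.4. Nlrc5, the transactivator of class I genes, was near the floor in both lines, with 0.116, 0.168 and 0.0609 CPM in 6694c2 and 0.334, 1.44 and 0.991 CPM in B16F10 samples (log2 fold change -2.94, adjusted p = 8.39e-04, edgeR). Of 13 genes of peptide supply and loading 6 were lower (46.2%, beside 36.1% of all genes) and 7 were not called. The lower call of Tap2 was lost without replicate 2 or 3 of either line. That of Calr was lost without B16F10 replicate 1 or 3. Tap1 had 2.79, 2.74 and 2.56 CPM in 6694c2 and 5.06, 8.02 and 7.37 CPM in B16F10 samples (log2 fold change -1.34, SE 0.192, adjusted p = 6.16e-06, edgeR) and Psmb10 19.2, 22 and 20.6 CPM in 6694c2 and 36.6, 34 and 35.8 CPM in B16F10 samples (log2 fold change -0.78, adjusted p = 1.25e-07, edgeR). The immunoproteasome genes Psmb8 and Psmb9 were under 2.5 CPM in all samples and not called. Class II genes were low in both lines. H2-Aa had 9.49, 11 and 11.2 CPM in 6694c2 and 2.48, 8.66 and 8.91 CPM in B16F10 samples and H2-Eb1 11.1, 10.3 and 12.7 CPM in 6694c2 and 3.25, 9.15 and 9.31 CPM in B16F10 samples, both called higher (adjusted p = 0.0458 and 0.0272, edgeR), and neither was called without B16F10 replicate 1 (adjusted p = 0.0851 and 0.0561, edgeR) or without 6694c2 replicate 3 (adjusted p = 0.0851 and 0.0746, edgeR), nor H2-Aa without 6694c2 replicate 2 (adjusted p = 0.101, edgeR). Cd74, the invariant chain, had 21.1, 19.5 and 26.2 CPM in 6694c2 and 9.65, 18.8 and 21.3 CPM in B16F10 samples and was not called. Summed, the 5 class II genes were at 48.6 to 60 CPM in 6694c2 and at 18.9, 44.4 and 48.3 in B16F10. B16F10 replicate 1 was lowest for these as for the 5 B-cell markers, which summed to 4.97 CPM there and to 13.9 to 17.6 in the other 5 samples. The part of B-cell RNA in the class II values was not tested.

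Secreted and surface immune factors stood higher in 6694c2 more often than lower, 17 against 8 of 28 tested, beside 34.2% and 36.1% of all genes, with a median log2 fold change of 2.36. Neutrophil and monocyte factors gave 7 higher of 8 (87.5%, beside 34.2% of all genes). Cxcl2, Cxcl3, Ccl20 and Csf2 passed the minimum of 10 reads only through their 6694c2 reads, so this count partly follows from that filter. The call of Cxcl2 was lost without B16F10 replicate 3 (adjusted p = 0.0507, edgeR). Cxcl5, a neutrophil attractant (ENSMUSG00000029371, chromosome 5 from 90759360 to 90761624), had 52.5, 54.3 and 64 CPM in 6694c2 and 0.239, 0.16 and 0.119 CPM in B16F10 samples (log2 fold change 8.35, SE 0.181, adjusted p = 2.28e-17, edgeR). Cxcl1 had 9.78, 9.56 and 10.5 CPM in 6694c2 and 0.287, 0.281 and 0.357 CPM in B16F10 samples (log2 fold change 4.98, SE 0.218, adjusted p = 5.33e-13, edgeR), and Csf2, which encodes GM-CSF, 6.23, 9.67 and 9.87 CPM in 6694c2 and 0.0955, 0 and 0 CPM in B16F10 samples (adjusted p = 2.36e-11, edgeR). With 2 Csf2 reads in B16F10 the ratio was 305 (exact 95% counting interval 84 to 2530). Cxcl3 and Ccl20 had no reads in B16F10 and were at least 30.6-fold and 19.3-fold higher in 6694c2 against a floor of 3 reads over the group. Csf1, the macrophage growth factor, was the member of this role that was lower, with 2.97, 3.69 and 2.86 CPM in 6694c2 and 23.9, 25.6 and 21.6 CPM in B16F10 samples (log2 fold change -2.89, SE 0.13, adjusted p = 7.62e-13, edgeR). Tgfb1 had 51.9, 56.4 and 56.1 CPM in 6694c2 and 1.43, 1.44 and 1.9 CPM in B16F10 samples (log2 fold change 5.09, SE 0.117, adjusted p = 4.86e-17, edgeR), and Tgfb3 went the other way (log2 fold change -3.3, adjusted p = 5.65e-13, edgeR). Cx3cl1, a membrane-bound chemokine, had 63.3, 62.9 and 59.5 CPM in 6694c2 and 0.287, 0.481 and 0.475 CPM in B16F10 samples (log2 fold change 7.18, SE 0.137, adjusted p = 4.26e-18, edgeR) and Il33, an alarmin kept in the nucleus, 91.6, 82.8 and 87.1 CPM in 6694c2 and 3.06, 3.33 and 3.01 CPM in B16F10 samples (log2 fold change 4.79, SE 0.0933, adjusted p = 5.30e-18, edgeR). Il18 had 0, 0 and 0.122 CPM in 6694c2 and 1.72, 2.57 and 2.02 CPM in B16F10 samples (adjusted p = 3.08e-07, edgeR), and Il6 had 4 reads, all in B16F10. Surface ligands were divided, 3 higher and 4 lower of 9 tested. The lower call of Cd80 was lost without B16F10 replicate 1 or any 1 of the 6694c2 samples. That of Nectin2 was lost without B16F10 replicate 1 or 2 or 6694c2 replicate 2 or 3. Cd274, which encodes PD-L1, had 1.63, 0.894 and 0.792 CPM in 6694c2 and 2.72, 3.13 and 4.24 CPM in B16F10 samples (log2 fold change -1.61, SE 0.289, adjusted p = 8.10e-05, edgeR). Cd47, the signal that restrains phagocytosis, had 174, 185 and 194 CPM in 6694c2 and 27.4, 26.3 and 26.1 CPM in B16F10 samples (log2 fold change 2.79, SE 0.0679, adjusted p = 1.09e-16, edgeR) and Icam1 24.7, 25.4 and 25.8 CPM in 6694c2 and 0.287, 0.361 and 0.119 CPM in B16F10 samples (log2 fold change 6.61, SE 0.192, adjusted p = 1.39e-15, edgeR). Pdcd1lg2 had no reads, and Fas was under 0.6 CPM in all 6 samples.

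Energy metabolism leaned towards B16F10. Of 25 glycolytic genes 18 were lower in 6694c2 (72%, beside 36.1% of all genes) and 5 higher, with a median log2 fold change of -0.53. Isoform pairs were used unequally by the lines. Glucose transporter Slc2a1 had 336, 295 and 295 CPM in 6694c2 and 75.8, 68.6 and 86.1 CPM in B16F10 samples (log2 fold change 2.01, SE 0.0798, adjusted p = 1.30e-13, edgeR), whereas Slc2a3 had 0.233, 0.112 and 0.304 CPM in 6694c2 and 46, 49.4 and 50 CPM in B16F10 samples (log2 fold change -7.79, SE 0.174, adjusted p = 3.47e-17, edgeR). Lactate dehydrogenase Ldha had 2560.0, 2664 and 2690.0 CPM in 6694c2 and 2141, 2090.0 and 2275 CPM in B16F10 samples (log2 fold change 0.28, SE 0.0536, adjusted p = 1.41e-04, edgeR; not called with total reads in place of TMM) and Ldhb 2.5, 1.4 and 1.58 CPM in 6694c2 and 279.6, 278 and 287 CPM in B16F10 samples (log2 fold change -7.26, SE 0.114, adjusted p = 3.58e-19, edgeR). Ldhb was thus at 0.65% of its B16F10 level, and by their rule it is itself among the B16F10-specific genes above. Pfkp, a phosphofructokinase, was lower as well (log2 fold change -2.72, SE 0.0642, adjusted p = 7.48e-17, edgeR), while its relative Pfkl was not called (adjusted p = 0.13, edgeR). Eno2, the enolase of neurons and neuroendocrine cells, had 0.407, 0.168 and 0.244 CPM in 6694c2 and 26, 26.4 and 26.9 CPM in B16F10 samples (log2 fold change -6.57, SE 0.189, adjusted p = 1.12e-15, edgeR). Pkm did not pass the test at 4086 ± 200.2 against 3836 ± 78.1 CPM (SD, n = 3 each) with an adjusted p of 0.138 from edgeR.

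Genes of the citrate cycle and nuclear subunits of oxidative phosphorylation were mostly lower, in small steps. In the citrate cycle 15 of 17 genes were lower (88.2%, beside 36.1% of all genes), with a median of -0.70. The others, Pdha1 and Sucla2, were not called. Cs, citrate synthase, had 286, 262 and 262 CPM in 6694c2 and 436, 438 and 438 CPM in B16F10 samples (log2 fold change -0.7, SE 0.0569, adjusted p = 4.21e-09, edgeR), and Idh3a 135 ± 6 against 500.5 ± 20.6 CPM (SD, n = 3 each), which is -1.89 on the log2 scale. Of 37 nuclear subunits of oxidative phosphorylation 32 were lower (86.5%, beside 36.1% of all genes) and 2 higher, with a median of -0.75. Cox5b, a subunit of cytochrome oxidase, differed most among them (log2 fold change -1.97, SE 0.0717, adjusted p = 3.52e-14, edgeR), and Ndufs8 and Ndufv1 of complex I were the members called higher (0.57 and 0.5 on the log2 scale). With total reads in place of TMM the median of all genes moved from -0.03 to -0.2, and these medians moved with it. Ppargc1a, a coactivator of mitochondrial biogenesis, had 1.05, 1.17 and 1.52 CPM in 6694c2 and 98.8, 108 and 101 CPM in B16F10 samples (log2 fold change -6.36, SE 0.116, adjusted p = 2.21e-18, edgeR). Tfam, which packages mitochondrial DNA and activates its transcription, had 73.5, 76 and 80.5 CPM in 6694c2 and 70.2, 68 and 70.7 CPM in B16F10 samples and was not called (adjusted p = 0.063, edgeR). Of 13 genes on the mitochondrial genome 6 were lower (46.2%, beside 36.1% of all genes) and 1 was higher (7.69%, beside 34.2%). The other 6 were not called. The lower calls of mt-Nd2 and mt-Nd6 (adjusted p = 0.0265 and 0.0297, edgeR) were both lost without replicate 2 of either line, which left 4 of the 6, and that of mt-Nd2 also without replicate 3 of either line. mt-Co1 had 2879, 2106 and 2237 CPM in 6694c2 and 1936, 2542 and 2276 CPM in B16F10 samples (adjusted p = 0.411, edgeR) and mt-Cytb 1095, 800.1 and 849 CPM in 6694c2 and 1838, 2117 and 1963 CPM in B16F10 samples (log2 fold change -1.11, adjusted p = 4.35e-09, edgeR). mt-Co2, mt-Co3, mt-Atp6 and mt-Atp8, transcripts of the same genome, were under 1 CPM in all 6 samples, and mt-Nd3, the member called higher, under 4. Copies of these genes lie in the nuclear genome, and how reads matching several places were counted is not given, so their values are uncertain.

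Of 20 genes of cholesterol synthesis 17 were higher (85%, beside 34.2% of all genes) and 3 lower, with a median of 0.61. Hmgcs1, an early enzyme, had 304, 294 and 308 CPM in 6694c2 and 89.8, 95.1 and 93.7 CPM in B16F10 samples (log2 fold change 1.7, SE 0.0575, adjusted p = 1.23e-14, edgeR). Sqle, which oxidises squalene (ENSMUSG00000022351, chromosome 15 from 59315077 to 59331192), had 216, 218 and 241 CPM in 6694c2 and 128, 135 and 143 CPM in B16F10 samples (log2 fold change 0.73, SE 0.0637, adjusted p = 1.04e-08, edgeR). The exceptions were Dhcr7, Nsdhl and Hsd17b7, the last of which lost its call without any sample but 6694c2 replicate 1. The master regulator Srebf2 had 384 ± 17.2 against 132 ± 3.51 CPM and its relative Srebf1 259 ± 7.88 against 74.5 ± 3.24 (SD, n = 3 each). Of 9 tested genes of fatty acid synthesis 5 were higher (55.6%, beside 34.2% of all genes) and 3 lower (33.3%, beside 36.1%). The desaturase Scd1 had 219, 201 and 222 CPM in 6694c2 and 74.2, 79.5 and 76.7 CPM in B16F10 samples (log2 fold change 1.48, SE 0.0625, adjusted p = 3.17e-13, edgeR), whereas Fasn overlapped at 447, 321 and 318 CPM in 6694c2 and 409.5, 456 and 468 CPM in B16F10 samples and its call (adjusted p = 0.0144, edgeR) was lost without B16F10 replicate 3 or 6694c2 replicate 2 or 3 and in DESeq2 (adjusted p = 0.15).

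Amino acid genes balanced out, 10 higher (43.5%) and 11 lower (47.8%) of 23, beside 34.2% and 36.1% of all genes. Some single differences were large. Slc7a11, the cystine importer, had 176, 128 and 129 CPM in 6694c2 and 9.84, 9.79 and 10.3 CPM in B16F10 samples (log2 fold change 3.85, SE 0.117, adjusted p = 2.59e-15, edgeR). Gldc, described above, and the mitochondrial folate enzyme Aldh1l2 lay at opposite ends, at log2 fold changes of 10.06 and -5.08. Mthfd2, another mitochondrial folate enzyme, was lower (log2 fold change -1.06, adjusted p = 2.16e-11, edgeR), and Phgdh and Psat1, which act early in serine synthesis, had log2 fold changes of 0.4 and 0.79 and were called higher. The stress factor Ddit3 had 4.19, 4.02 and 3.84 CPM in 6694c2 and 29.9, 31.2 and 30.6 CPM in B16F10 samples (log2 fold change -2.93, SE 0.105, adjusted p = 2.83e-14, edgeR), while Atf4 above it was higher (log2 fold change 0.78, adjusted p = 6.33e-09, edgeR). Of 26 redox and xenobiotic genes 19 were higher in 6694c2 (73.1%, beside 34.2% of all genes) and 5 lower, with a median of 1.23. By role, 6 of 11 glutathione and thioredoxin genes were higher and 3 lower, and 7 of 8 oxidoreductases higher and 1 lower. Nfe2l2, a factor that drives many of the 26, had 244, 239 and 250.5 CPM in 6694c2 and 111, 115 and 108 CPM in B16F10 samples (log2 fold change 1.13, SE 0.057, adjusted p = 4.17e-12, edgeR). Gsr, glutathione reductase, had 945, 933 and 940.2 CPM in 6694c2 and 96.7, 89.8 and 95.8 CPM in B16F10 samples (log2 fold change 3.32, SE 0.0597, adjusted p = 1.93e-18, edgeR) and Gsta4 505, 512 and 568 CPM in 6694c2 and 18.8, 16.1 and 17.1 CPM in B16F10 samples (log2 fold change 4.93, SE 0.0794, adjusted p = 4.71e-19, edgeR). Aldh3a1, an aldehyde dehydrogenase, had 52.9, 56.5 and 64.9 CPM in 6694c2 and 0.0478, 0.0401 and 0.0792 CPM in B16F10 samples (log2 fold change 9.86, SE 0.204, adjusted p = 1.25e-17, edgeR). Nqo1, a much used Nfe2l2 target, had 28.5, 28.1 and 30.4 CPM in 6694c2 and 11.1, 11.8 and 11.6 CPM in B16F10 samples (log2 fold change 1.33, SE 0.0884, adjusted p = 2.27e-10, edgeR). Hmox1, another target, went the other way with 8.67, 8.78 and 11.1 CPM in 6694c2 and 59, 64.4 and 67.2 CPM in B16F10 samples (log2 fold change -2.74, SE 0.0978, adjusted p = 2.65e-14, edgeR), as did Txnrd1, Srxn1, Gstp1 and G6pdx.

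Of the immunometabolic enzymes 9 of 13 were tested. Of these 4 were higher (44.4%, beside 34.2% of all genes) and 2 lower (22.2%, beside 36.1%). Ass1, which makes argininosuccinate on the way to arginine, had 1.63, 1.06 and 0.853 CPM in 6694c2 and 116, 123 and 127 CPM in B16F10 samples (log2 fold change -6.68, SE 0.127, adjusted p = 3.74e-18, edgeR). Mtap, a neighbour of the Cdkn2a locus that cleaves methylthioadenosine, was detected in both lines, at 421 ± 18.2 CPM in 6694c2 and 509 ± 6.71 in B16F10 (SD, n = 3 each), and was lower in 6694c2 by edgeR (adjusted p = 2.45e-04). Of 5 tested prostaglandin and adenosine genes 3 were higher in 6694c2 (60%, beside 34.2% of all genes) and none lower. Ptgs2, which encodes cyclooxygenase-2 (ENSMUSG00000032487, chromosome 1 from 150100031 to 150108227), had 14.8, 12.2 and 11 CPM in 6694c2 and no reads in B16F10, at least 301-fold higher against a floor of 3 reads over the group. Ptges, which makes prostaglandin E from its product, had 66.2, 71.9 and 73.1 CPM in 6694c2 and 0.239, 0.16 and 0.317 CPM in B16F10 samples (log2 fold change 8.17, SE 0.15, adjusted p = 2.41e-18, edgeR). Nt5e, which encodes the ecto-5′-nucleotidase CD73, had 55.7, 55.1 and 50.4 CPM in 6694c2 and 0, 0.201 and 0.159 CPM in B16F10 samples (log2 fold change 8.66, SE 0.203, adjusted p = 6.77e-17, edgeR). Ptgs1 and Hpgd were not called. Ptgs2 passed the minimum of 10 reads only through its 6694c2 reads, so the count of this role partly follows from that filter. Ido1 and Arg1 had fewer than 10 reads over the 6 samples, and Nos2 had none.

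**Figure D5:**
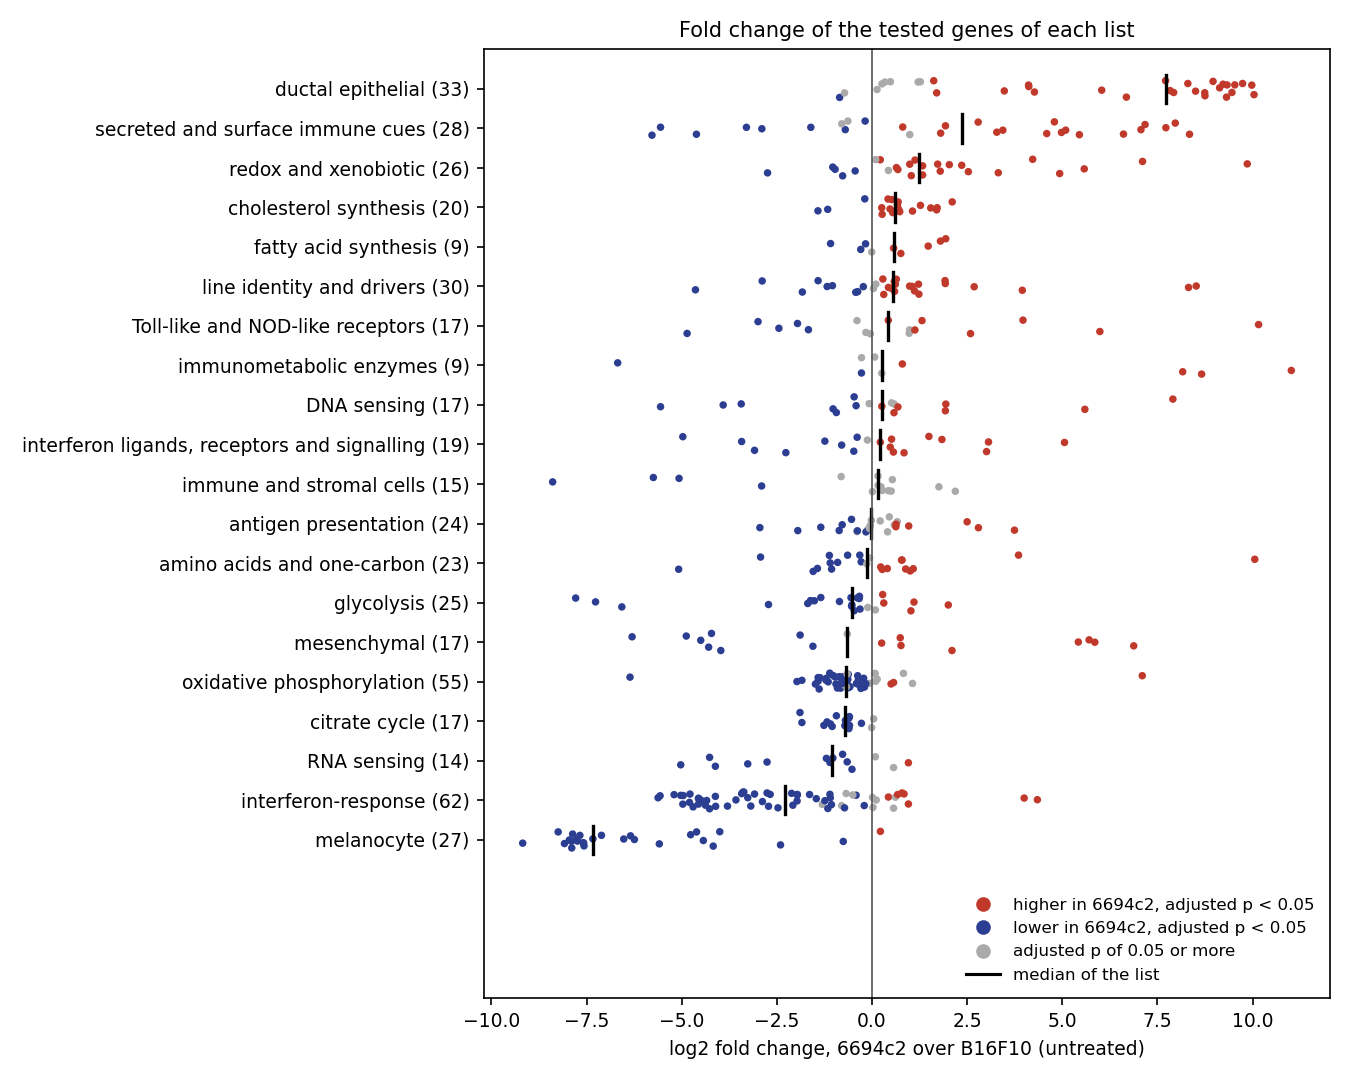
Log2 fold change of 6694c2 over B16F10 for each tested gene of 20 lists, ordered by their median (black bar), with the number of tested genes in brackets. Red points were called higher and blue lower in 6694c2 at an adjusted p under 0.05, grey points were not called. Genes without reads in a line (Tff2, Snai1, Tlr5, Cxcl3, Ccl20, Tslp, Cd80 and Ptgs2) stand at fitted values that depend on the prior count. The ductal list has the highest median (7.72), followed by immune cues (2.36), and the melanocyte (-7.33) and interferon-response (-2.29) lists the lowest.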

How the data were processed

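Poly(A) RNA of cultured cells had been sequenced in paired-end runs. Per the methods and labels, the authors trimmed reads with cutadapt, aligned them with STAR to mm10 and counted reads per gene with Rsubread, and the deposited files hold these counts, not normalized. The annotation, the strand setting and the treatment of reads with several matches are not given in the sources used here.

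Of the 49315 genes, the 17006 with at least 10 reads over the 6 samples were tested with edgeR 4.0.16 (R 4.3.3) by quasi-likelihood with TMM factors, on all 6 samples and with no covariate. CPM used TMM library sizes, and RPKM divided them by the gene length in the files. P-values were adjusted over all tested genes (Benjamini-Hochberg). With no reads in a group, fold bounds used 3 counts over that group. Alternatives were DESeq2 1.42.0, other size factors, filters, a replicate block, all 24 samples in the fit and leaving out each sample.

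Lead genes of each list were named, some genes and 1 allele not being reported here, with the 8 called genes of largest fold in each direction at 100 CPM or more in every sample of the higher line and without group overlap (unnamed gene models left out). Other list members are examples. The comparison and lists were chosen with earlier results of these data known. Depth ranged from 17450954 to 24019834 reads on genes per sample.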

Additional observations from a re-analysis of the deposited data

How the results depend on the processing

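The counts of genes higher and lower, in total and over 2-fold, stayed within 1.5 times under every alternative run, DESeq2 included (5573 higher and 5676 lower). Total reads in place of TMM moved the median of all genes from -0.03 to -0.2, gave 4960 higher and 7140 lower, and moved list medians with it: melanocyte -7.51, ductal 7.54, other pancreatic cells 0.792, drivers 0.376, interferon ligands, receptors and signalling 0.0451, RNA sensing -1.24, immune cues 2.19, glycolysis -0.701, citrate cycle -0.872, oxidative phosphorylation -0.839, cholesterol 0.433, fatty acids 0.394, amino acids -0.312 and redox 1.05. With edgeR's filter on expression, which tests fewer genes of low level, the medians were 8.41 (ductal), -1.09 (mesenchymal), -0.0336 (Toll-like and NOD-like receptors, from 0.43), 3.95 (immune cues) and 0.807 (immunometabolic). Leaving out 1 sample at a time, the medians ranged from 7.36 to 7.8 (ductal), 0.473 to 0.565 (drivers), 0.56 to 0.658 (cholesterol) and 0.172 to 0.687 (immunometabolic, the highest without B16F10 replicate 2). Of 396 called list genes, 23 lost the call without some sample and 0 changed sign. With the replicate number as a block, 5576 genes were higher and 5879 lower. Same-numbered samples of the lines did not deviate together (correlations -0.217, -0.206 and 0.007). With 3 samples per line this cannot show whether same-numbered samples were handled together. Genes of a few reads have wide errors at this depth.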

Other observations

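The direction of differences was not even along the genome. Among genes with a mean of at least 1 CPM, the median log2 fold change of 6694c2 over B16F10 was highest on chromosome 19 at 0.636 (440 genes, 292 higher and 100 lower), followed by chromosome 13 at 0.546 (469 genes, 291 higher and 86 lower) and chromosome 18 at 0.434 (310 genes). It was lowest on the X chromosome at -0.484 (374 genes, 90 higher and 218 lower), chromosome 2 at -0.397 (989 genes, 227 higher and 594 lower) and chromosome 6 at -0.352 (624 genes). The median of all these genes was -0.00347.

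Of 5 listed NOD-like receptors 3 were tested, and all 3 were called higher in 6694c2, beside 34.2% of all genes. Nlrc4 and Nod2 passed the minimum of 10 reads only through their 6694c2 reads, so this count partly follows from that filter. Nlrc4, an inflammasome sensor of bacterial proteins, and Nod2, a sensor of bacterial cell wall, were at or near 0 in B16F10 and are named after their values were seen. Nlrc4 had 5.36, 4.36 and 4.81 CPM in 6694c2 and 0, 0 and 0.198 CPM in B16F10 samples (log2 fold change 5.99, adjusted p = 2.45e-09, edgeR). Nod2 had 0.291, 0.447 and 0.183 CPM in 6694c2 and 0, 0 and 0.0396 CPM in B16F10 samples (adjusted p = 0.00302, edgeR), a ratio of 22.1 (exact 95% counting interval 3.43 to 927) with 1 read in B16F10.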
